A study of Bos taurus with 27 samples.

Results

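The genes examined encode the nuclear subunits of the oxidative phosphorylation system, with a few close relatives, in bovine blastocysts (Bos taurus). Members were every gene of the count table whose symbol starts with NDUFA, NDUFB, NDUFC, NDUFS, NDUFV, UQCR, COX4, COX5, COX6, COX7, COX8, ATP5F, ATP5M or ATP5P, together with SDHA, SDHB, SDHC, SDHD, CYC1 and CYCS. The rule used symbols alone and found 95 of the 32637 genes in the table. It also named the protein genes of the mitochondrial genome, of which 0 matched by symbol, so mitochondrially encoded subunits were not analysed here. The study took oocytes from abattoir ovaries and matured them in vitro in medium to which fluid of preovulatory follicles had been added, the follicles being of either greater or lesser maturity. The oocytes were fertilised with semen of 1 bull, and blastocysts that were expanding or expanded (stage score 7) and of quality score 1 were collected. Each of the 27 samples was a pool of RNA from 2 such blastocysts. The labels do not tie a pool to a follicle maturity treatment or an IVF replicate, so no treatments were compared and all values are given over the 27 pools as a range and a median. The deposited values were raw counts of forward reads from 3′ cDNA libraries.

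Oxidative phosphorylation takes place in the inner mitochondrial membrane. Complexes I and II pass electrons from NADH and succinate to ubiquinone, complex III passes them to cytochrome c, and complex IV passes them to oxygen. Complexes I, III and IV pump protons as they do so, and complex V, the ATP synthase, lets the protons return and makes ATP. In the mammalian embryo, oxygen use and oxidative ATP production are known to increase as the blastocyst forms, when the trophectoderm pumps ions to fill the cavity. All 4 subunits of complex II are encoded in the nucleus, whereas the other complexes are built from nuclear and mitochondrial gene products.

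The total count on genes ranged from 10517606 to 44253564 per pool, with a median of 22293594, and 3 counts were equal to 0.0678 to 0.285 counts per 1000000 counts (CPM), a limit that covers counting error only. With at least 1 CPM required in 12 pools, 12310 genes were retained, among them 91 of the 95 members. The labelled tissue was checked against marker genes. The trophectoderm genes KRT8, KRT18, GATA3, GATA2, CDX2, TFAP2A, TFAP2C and ELF3 were all retained and summed to between 15553 and 38775 CPM. Most of this sum came from the keratins KRT8 (median 18607 CPM) and KRT18 (7937 CPM). The medians of the others ran from 3.62 CPM for CDX2 to 221 CPM for TFAP2C. The epiblast genes were also all retained (6 of 6, 300.1 to 1263 CPM), and 4 of 6 hypoblast genes were, with SOX17 at a median of 0 CPM. The cumulus or granulosa cell markers summed to 11.7 to 41.3 CPM with 3 of 8 retained, the leukocyte markers to 4.35 to 26.5 CPM with 4 of 7 retained, the oocyte markers to 31.7 to 106 CPM with 5 of 7 retained, and the sperm and germ cell markers to 0.0326 to 20.0 CPM with 1 of 4 retained. In bulk RNA, fewer cells of a type and less RNA per cell cannot be told apart.

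Subunit genes were among the most counted genes of the blastocyst. The median of the retained members' medians was 498.5 CPM, against 14.4 CPM over all retained genes. Of the 91 retained members, 74 (81.3%) ranked among the 1000 genes with the highest median CPM, a position held by 8.12% of all retained genes. Together the 95 members took 6.01% of all counts in the median pool, from 4.95% in pool 9 to 6.93% in pool 15. CPM values of different genes are read numbers from the 3′ end and transcript lengths were not used here, so an order of CPM is an order of reads and not of transcripts per length.

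**Figure D1:**
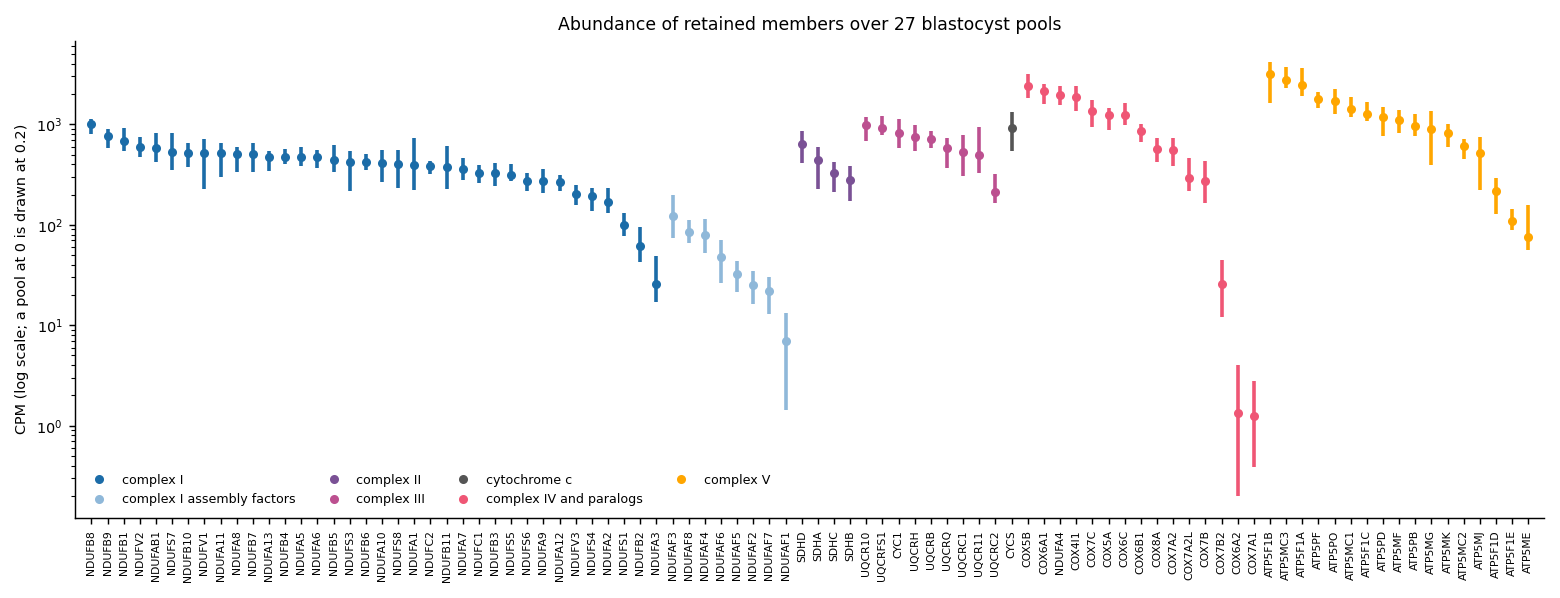
CPM (log scale) of all but 1 of the 91 retained members, grouped by complex and ordered by median within it; points are medians over 27 pools and bars run from the lowest to the highest pool, with a pool at 0 drawn at 0.2. Most subunits have medians over 100 CPM and short bars, whereas NDUFAF1 and the paralogs COX6A2 and COX7A1 lie below 10 CPM at their medians and have long ones.

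Complex I was represented by 37 subunits, all retained, which summed to 13042 CPM in pool 9, 15484 CPM in the median pool and 16927 CPM in pool 26. The most counted were NDUFB8 and NDUFB9, accessory subunits of the membrane arm. NDUFB8 ranged from 797 to 1139 CPM with a median of 998, and NDUFB9 from 577 to 905 CPM with a median of 760. The least counted was the accessory subunit NDUFA3, at 16.9 to 48.9 CPM with a median of 26.0, and 34 of the 37 had a median over 100 CPM. The 7 nuclear core subunits carry the flavin and the iron-sulphur clusters or help to form the ubiquinone site, and the lowest of their medians was 99.2 CPM, for NDUFS1. The highest pool exceeded the lowest by a median ratio of 2.37 for the core subunits and 1.69 for the 30 accessory subunits, given as a description.

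The symbol rule also took in NDUFAF1 to NDUFAF8, which help to assemble complex I and are not part of the finished enzyme. All 8 were retained, but their counts were low beside those of the subunits, with medians from 6.94 CPM for NDUFAF1 to 122 CPM for NDUFAF3 and a sum of 362 to 506 CPM. NDUFAF1 was at 1.42 CPM in pool 5 and 13.1 CPM in pool 28, the largest ratio (9.23) among members with a median of at least 5 CPM. NDUFAF1 overlaps the annotated gene NUSAP1, which had 145667 counts over the pools against 4535 for NDUFAF1. NDUFAF5 overlaps ESF1, which had 44239 counts against 20691, and NDUFAF3 overlaps IMPDH2, which had 74345 against 78004. Counting is not stated to have used strand, so the values of these assembly factors are uncertain. In all, 28 of the 95 members overlap another annotated gene.

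The 4 subunits of complex II, succinate dehydrogenase, summed to 1342 CPM in pool 35, 1687 CPM in the median pool and 2014 CPM in pool 15. SDHD, a membrane anchor, was the most counted (412 to 854 CPM, median 640), followed by the flavoprotein SDHA (229 to 590 CPM, median 439), the anchor SDHC (213 to 423 CPM, median 330) and the iron-sulphur subunit SDHB (174 to 385 CPM, median 281). The ranges of all 4 overlapped. The lowest SDHA value was in pool 9 and the highest in pool 31, and pool 31 had the lowest values of both SDHC and SDHD.

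Complex III had 9 nuclear subunits, all with a median over 100 CPM. UQCR10, a small supernumerary subunit, was the most counted, at 687 to 1184 CPM with a median of 986. UQCRFS1, the Rieske iron-sulphur protein, ranged from 786 to 1217 CPM with a median of 926. UQCRC2, a core protein without a redox group, was the least counted at 165 to 320 CPM with a median of 213. Cytochrome c itself, CYCS, which carries electrons from complex III to complex IV and takes part in apoptosis once released, ranged from 541 CPM in pool 31 to 1324 CPM in pool 32, with a median of 923.

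Complex IV was where one gene of a pair or triplet took nearly all the reads. The most counted were COX5B (1843 to 3174 CPM, median 2430) and COX6A1 (1601 to 2499 CPM, median 2129). NDUFA4, named for complex I but a subunit of complex IV, ranged from 1550 to 2416 CPM. The widely expressed form held at least 99.82% of the reads of its pair in every pool for COX6A1 over COX6A2, at least 99.99% for COX4I1 over COX4I2, at least 99.88% for COX6B1 over COX6B2, at least 99.93% for COX8A over COX8B and at least 99.99% for NDUFA4 over NDUFA4L2. COX6A2 and COX7A1 are the heart and skeletal muscle forms, COX4I2 is known from lung, and COX6B2 from testis. COX4I2, COX6B2, COX8B and NDUFA4L2 were the 4 members not retained. COX4I2 had 5 counts in all pools together and NDUFA4L2 had 6, and the median pool of both was at 0 counts, which allows up to 0.0678 to 0.285 CPM depending on the pool. COX6B2 ranged from 0.141 to 0.897 CPM and COX8B from 0 to 0.374 CPM. COX8B overlaps NBAS and NDUFA4L2 overlaps SHMT2 in the annotation.

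COX7 genes were shared out differently. COX7A2 held 58.4% to 70.7% of the COX7A reads with a median of 64.7%, and COX7A2L, which acts in joining complexes III and IV into supercomplexes, held 29.2% to 41.5%. COX7A1 held 0.0469% to 0.370% and was the least counted retained member of the complex, at 0.391 to 2.79 CPM. COX7B2, a paralog known from testis, held 4.18% of the COX7B reads in pool 45 and 14.2% in pool 19, with a median of 8.23%. Its level ran from 12.0 CPM in pool 31 to 44.6 CPM in pool 13, the second largest ratio (3.72) after NDUFAF1 among members with a median of at least 5 CPM. COX6A2 was at 0 counts in 3 pools and reached 4.03 CPM in pool 35. The muscle markers MYH7, ACTA1, CKM and MB summed to 0.652 to 10.5 CPM.

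Complex V had the highest sum, 16348 CPM in pool 9, 20751 CPM in the median pool and 26016 CPM in pool 15. ATP5F1B, the catalytic beta subunit of the F1 head, was the most counted member of all by its median, at 1621 CPM in pool 9, 3195 CPM in the median pool and 4135 CPM in pool 24. ATP5MC3, 1 of 3 genes whose products mature to the same c-ring subunit, ranged from 2287 to 3697 CPM with a median of 2753, and ATP5F1A, the alpha subunit of the head, from 1898 to 3606 CPM with a median of 2452. The ranges of these 3 genes overlapped. The least counted was ATP5ME, a small membrane subunit, at 55.5 to 158 CPM with a median of 75.2. Among the c-ring genes, ATP5MC3 held 52.9% to 61.0% of the reads, ATP5MC1 26.7% to 34.3% and ATP5MC2 9.89% to 14.8%. The 3 shares did not overlap in any pool, so the order of reads was the same in all 27.

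Genes that serve the pathway without being subunits were counted less. Of 81 such genes, 76 were retained, and the median of their medians was 42.6 CPM. The 51 retained assembly genes had medians from 0.991 to 610 CPM, the highest being COX14, which acts early in complex IV assembly. ATP5IF1, the inhibitor that stops ATP synthase from running backwards, had the highest median of the list at 946 CPM (669 to 1401). The uncoupler UCP2 was at 1.62 to 10.5 CPM, UCP3 at 0 to 0.258 CPM, and UCP1 at 0 counts in every pool. The 14 genes of mitochondrial transcription, replication and RNA had medians from 3.58 to 315 CPM, led by the single-stranded DNA binding protein SSBP1. The 10 retained nuclear regulators had medians from 3.52 to 89.3 CPM.

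The highest pool was less than 2-fold above the lowest for 57 of the 91 retained members. The median ratio of the highest to the lowest pool was 1.78 over the 91 retained members and 4.18 over all retained genes. Among genes with a median of at least 50 CPM, the ratio was 1.74 over 82 members and 2.14 over 3110 genes, and it was under 2 for 69.5% of these members and 40.8% of these genes. The 2 sets were not matched in abundance, with medians of 515.5 and 119.5 CPM. The 76 retained cytosolic ribosomal protein genes, at a median of 748 CPM, had a median ratio of 1.70. The smallest ratios of the members belonged to the complex I accessory subunits NDUFC2 (1.37), NDUFB4 (1.42) and NDUFB8 (1.43). Among members with a median of at least 5 CPM, the largest after NDUFAF1 and COX7B2 was that of ATP5MG (3.44), a membrane subunit of complex V. ATP5MG was at 392 CPM in pool 5, 483 CPM in pool 9 and 496 CPM in pool 38, and between 726 and 1347 CPM in the other pools.

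Single pools held many of the extreme values, of the members and of other genes. Among genes with a median of at least 50 CPM, pool 9 was the lowest pool for 21 of the 82 members (25.6%) and for 13.5% of all 3110 genes. Pool 14 was lowest for 12 members (14.6%) and 5.15% of the genes, and pool 31 for 10 members (12.2%) and 18.3% of the genes. Pool 15 was the highest for 15 members (18.3%) and 2.57% of the genes, pool 32 for 11 members (13.4%) and 11.5% of the genes, and pool 9 for 0 members and 9.84% of the genes. Pool 9 had the lowest sums of complexes I, III, IV and V. These shares are a description with no test.

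**Figure D2:**
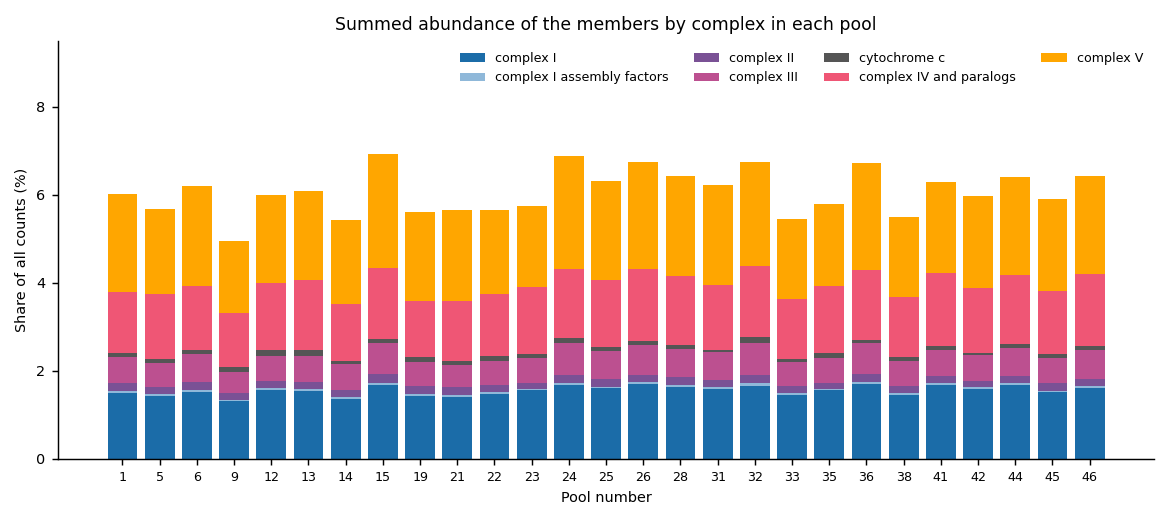
Summed CPM of the members in each pool, as a share of all counts (%), stacked by complex from 0. The stacks run from 4.95% in pool 9 to 6.93% in pool 15, with complex V the largest layer in the median pool and complexes I and IV next.

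Correlations were taken between the 80 retained members that are neither assembly factors nor paralogs, called subunits in this paragraph. They include CYCS, set apart from the complexes, and COX7A2L, counted in complex IV. Correlations were above 0 for 81.0% of pairs within a complex and 79.2% of pairs between complexes, against 54.1% of all pairs of retained genes. The median Spearman correlation of log2 CPM was 0.29 over 910 pairs within a complex and 0.31 over 2250 pairs between complexes, against 0.025 over the 75761895 pairs of retained genes. It was highest within complex V (0.45, 136 pairs) and lowest within complex II (0.21, 6 pairs). For the X-linked subunits NDUFA1, NDUFB11 and COX7B, the 3 pairs with each other had a median of 0.75, and the 231 pairs with autosomal subunits a median of -0.19, whereas 2926 pairs of autosomal subunits had a median of 0.32. These are descriptions over 27 pools whose genes share library, depth and normalisation, and they carry no p-value.

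The next question was how the members followed XIST, the RNA transcribed from the inactive X chromosome of female cells, since the pools held embryos of either sex and some subunits are X-linked. XIST ranged from 0.0484 CPM in pool 15 to 35.4 CPM in pool 5, with a median of 11.5. Summed Y-linked transcripts were between 18.9 and 197 CPM in 18 pools, where XIST was between 0.0484 and 19.6 CPM, and between 0.430 and 1.65 CPM in the other 9, where XIST was between 12.3 and 35.4 CPM. A slope, in log2 units per 10 CPM of XIST, was fitted to every retained gene with edgeR's quasi-likelihood test and Benjamini-Hochberg adjustment. Of the 91 retained members, 2 rose along XIST and 12 fell at an adjusted p of at most 0.05. Of all 12309 genes tested, 239 (1.94%) rose and 174 (1.41%) fell. Slopes were below 0 for 71 of the 91 members (78.0%) and 51.2% of all genes, with medians of -0.068 and -0.0035. DESeq2 called 3 members higher and 16 lower, and among all 12310 retained genes, XIST itself included, 373 higher and 314 lower. The p-values measure the spread between pools, and relations were not recomputed within IVF replicates, which were not assigned.

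Both members that rose are X-linked. NDUFA1, a small accessory subunit of complex I on chromosome X (4220541 to 4223713, ARS-UCD2.0), ranged from 223 CPM in pool 31 through a median of 393 to 734 CPM in pool 41. Its slope was 0.35 ± 0.048 (SE, n = 27 pools; edgeR adjusted p = 0.000113), a fitted 2.37-fold rise over the range of XIST. COX7B, a complex IV subunit (chromosome X, 74502510 to 74507315), ranged from 166 CPM in pool 1 through 270 to 430 CPM in pool 41, with a slope of 0.22 ± 0.047 (edgeR adjusted p = 0.00717). The third X-linked member, NDUFB11 of complex I (chromosome X, 85528832 to 85531089), ranged from 225 CPM in pool 21 through 374 to 603 CPM in pool 12. Its slope of 0.15 ± 0.048 missed the threshold (edgeR adjusted p = 0.0712), and pool 5, highest in XIST, was at 306 CPM. Without pools 5 and 33, the 2 farthest from the median of XIST, its slope was 0.24 with an adjusted p of 0.00581. With each pool left out in turn, NDUFB11 passed in 1 of 27 fits (edgeR adjusted p from 0.0094 to 0.172). DESeq2 on all 27 pools gave it an adjusted p of 0.0366. Of 445 X-linked genes tested, 139 rose along XIST and 0 fell (0 lower unadjusted).

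All 12 members that fell are autosomal, of 88 autosomal members tested, while 0 autosomal members rose (1 at an unadjusted p of at most 0.05). Among all 11746 autosomal genes, 88 rose and 165 fell. ATP5F1A (chromosome 24, 45841918 to 45850825) was at 3606 CPM in pool 15, lowest in XIST, and at 1898 CPM in pool 33 and 2001 CPM in pool 5, highest in XIST. Its slope was -0.22 ± 0.034 (edgeR adjusted p = 0.000526), a fitted 1.71-fold fall over the range. UQCRC1, a core protein of complex III (chromosome 22, 51275060 to 51283828), ranged from 307 CPM in pool 41 through 525 to 787 CPM in pool 32, with a slope of -0.28 ± 0.050 (edgeR adjusted p = 0.002) and a fitted 1.99-fold fall. CYC1, the cytochrome c1 of the same complex, fell with a slope of -0.17 ± 0.036 (edgeR adjusted p = 0.00789) and was at 580 CPM in pool 9 and 1133 CPM in pool 32. ATP5PO, in the peripheral stalk of complex V, fell with a slope of -0.15 ± 0.033 (edgeR adjusted p = 0.00626). ATP5F1D, the delta subunit of the F1 head, fell with a slope of -0.20 ± 0.048 (edgeR adjusted p = 0.0141). The remaining 7 were NDUFS8, NDUFA9, NDUFV1, ATP5MC1, NDUFA3, ATP5F1B and ATP5MC2, with slopes from -0.21 to -0.11.

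**Figure D3:**
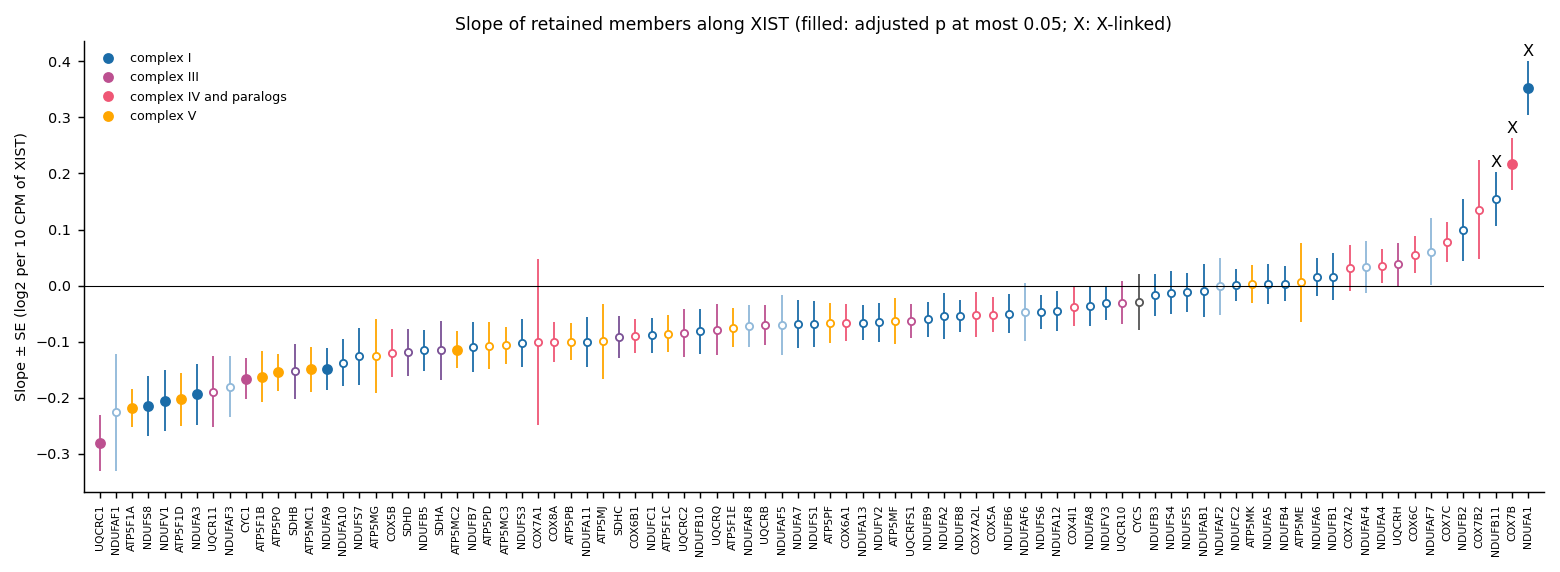
Slope along XIST (log2 per 10 CPM, ± SE, 27 pools) of the retained members except COX6A2 and 1 other, in ascending order and coloured by complex; filled points have an edgeR adjusted p of at most 0.05 and X marks X-linked genes. The 3 X-linked members have slopes above 0, 2 of them filled, and 71 of all 91 slopes lie below 0. COX6A2 is autosomal and 1 of the 3 retained paralogs, of which 2 had slopes above 0 (median 0.14) and 0 passed.

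By complex, 6 of the 17 members of complex V fell, 3 of them among the 5 subunits of the F1 head. In complex I, 4 of 37 fell and 1 rose, and in complex III 2 of 9 fell. In complex IV, 1 of 15 rose and 0 fell. The 4 complex II genes had slopes below 0, from -0.15 for SDHB to -0.092 for SDHC, and 0 passed (4 at an unadjusted p of at most 0.05). For the 8 assembly factors 0 passed (2 lower unadjusted), and for the 76 other pathway genes 0 passed with edgeR (3 higher and 8 lower unadjusted), where DESeq2 called 1 higher. Of the 33 retained markers, 1 passed with edgeR, the hypoblast gene PDGFRA, which fell along XIST (5 higher and 3 lower unadjusted; DESeq2 called 1 higher and 1 lower). Unadjusted, 2 of 8 trophectoderm genes were lower, and 2 of the 3 retained cumulus or granulosa cell genes, 1 of 6 epiblast genes, 1 of 5 oocyte genes and the 1 retained sperm and germ cell gene were higher. The 3 cumulus or granulosa cell genes all had slopes above 0, with a median of 0.37. The part of cell type shares in these slopes was not tested.

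The calls, of the members and of all genes, depended on the pools that entered. In the 18 pools with Y-linked transcripts alone, over a narrower range of XIST, 0 members passed with edgeR (2 higher and 7 lower unadjusted). DESeq2 was not run there. Over all retained genes 1 passed, higher, in a count that did not leave out XIST, the covariate itself. Slopes were still below 0 for 76 of the 91 members. NDUFA1 had a slope of 0.32 and ATP5F1A of -0.24 in those pools. When each pool was left out in turn, the number of members that fell ran from 5 to 18: it was 5 without pool 15 and 7 without pool 23, 33, 35 or 36. The number of all genes that fell moved too, from 174 in the main fit to 85 without pool 15 and 215 without pool 21. NDUFA1, COX7B, ATP5F1A, UQCRC1, ATP5PO, CYC1 and ATP5F1D passed in all 27 of these fits.

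**Figure D4:**
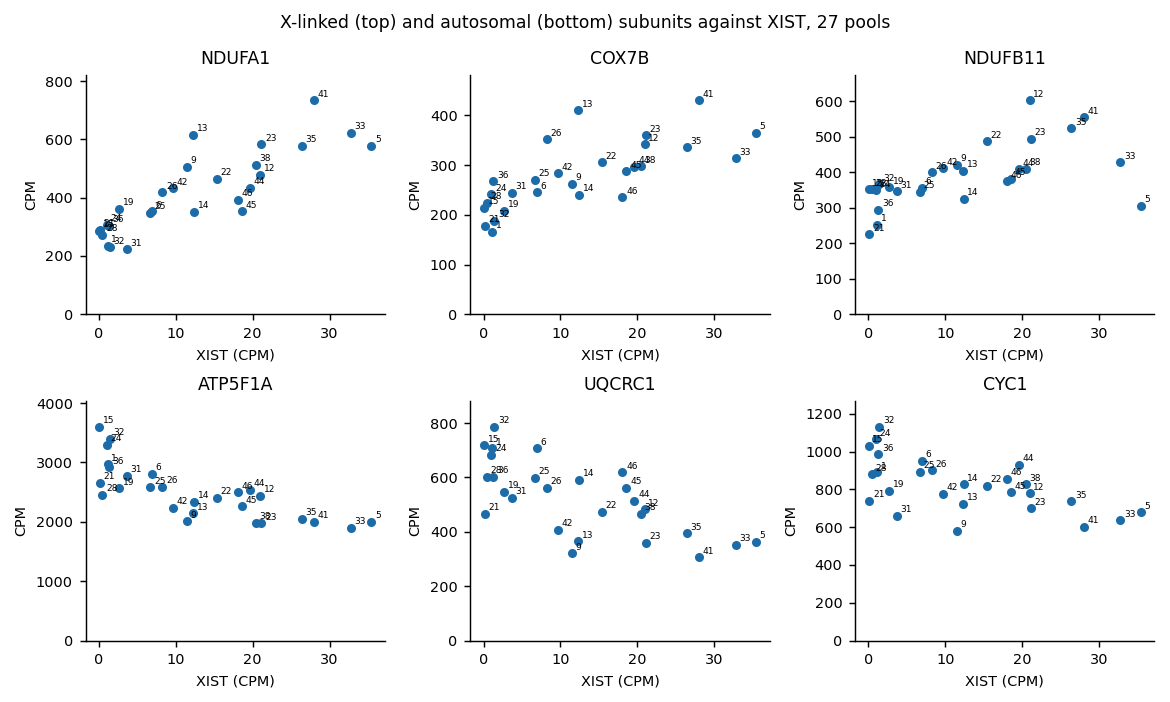
CPM of 3 X-linked subunits (top) and 3 autosomal subunits (bottom) against XIST in CPM, 1 point per pool with its number, y axes from 0. NDUFA1 and COX7B reach their highest value in pool 41 and ATP5F1A its highest in pool 15, at the lowest XIST.

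The members were also set against cytosolic ribosomal protein transcripts, which like subunit mRNAs are mostly short and abundant. The 80 ribosomal protein genes summed to 50676 CPM in pool 33, 61414 CPM in the median pool and 69194 CPM in pool 26. This sum used total counts, whereas the fits used TMM factors (0.892 to 1.08), and a sum scaled by TMM was not tried. Members and sum come from the same libraries, and the part of shared normalisation in the slopes was not tested. Of the 91 retained members, 12 rose along the log2 of the ribosomal protein sum and 0 fell at an edgeR adjusted p of at most 0.05 (48 higher and 0 lower unadjusted; DESeq2 16 and 0). Of the 12234 genes tested outside the ribosomal proteins, 37 (0.302%) rose and 18 (0.147%) fell (713 higher and 666 lower unadjusted). The 12 members were therefore 12 of the 37. Over all retained genes, ribosomal protein genes included, DESeq2 called 157 higher and 46 lower. Slopes, in log2 units per doubling of the sum, were above 0 for 82 members (90.1%) and 47.5% of all genes, with medians of 0.86 and -0.064.

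Of the 12 that rose, 6 belong to complex V, 3 to complex I, 2 to complex IV and 1 to complex III. ATP5MC2, the least counted c-ring gene (chromosome 5, 26370080 to 26378374), ranged from 449 CPM in pool 5 through 615 to 719 CPM in pool 44. Its slope was 1.42 ± 0.26 (SE, n = 27 pools; edgeR adjusted p = 0.00206), a fitted 1.56-fold rise over the range of the sum. COX5B, the zinc-binding subunit of complex IV (chromosome 11, 2947406 to 2949454), ranged from 1843 CPM in pool 14 through 2430 to 3174 CPM in pool 15, with a slope of 1.69 ± 0.34 (edgeR adjusted p = 0.00621). UQCRB, the ubiquinone-binding protein of complex III, had a slope of 1.23 ± 0.27 (edgeR adjusted p = 0.017). ATP5PF, coupling factor 6 of the peripheral stalk, had a slope of 1.26 ± 0.28 (edgeR adjusted p = 0.018). ATP5PF overlaps GABPA, which had 59644 counts against 1116834. COX6B1, which links the monomers of the complex IV dimer, had a slope of 1.15 ± 0.26 (edgeR adjusted p = 0.0204). NDUFA7, ATP5PD, ATP5MF, NDUFS7, NDUFA13, ATP5MC1 and ATP5PO followed, with slopes from 1.03 to 1.68. In the peripheral stalk 3 of 4 genes rose, and in the c-ring 2 of 3. Of the 76 other pathway genes 1 rose, SLIRP, an RNA-binding protein that stabilises mitochondrial mRNA (slope 1.39 ± 0.29, edgeR adjusted p = 0.00861). Of the 33 retained markers 0 passed with edgeR or DESeq2 (2 higher and 2 lower unadjusted with edgeR). Unadjusted, 1 of 8 trophectoderm genes was higher and 1 lower, 1 of 6 epiblast genes was higher, and 1 of the 3 retained cumulus or granulosa cell genes was lower. The slopes of these 3 were all below 0, with a median of -2.21. The part of cell type shares was not tested here either.

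**Figure D5:**
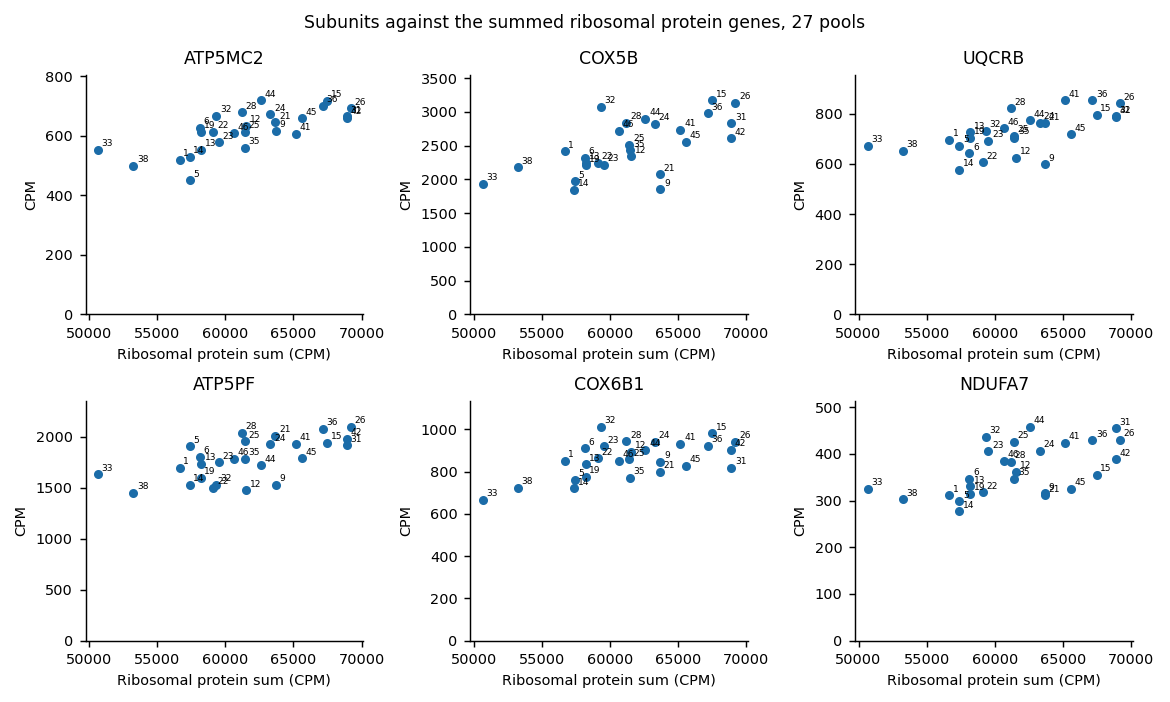
CPM of the first 6 members by adjusted p against the summed CPM of 80 ribosomal protein genes, 1 point per pool with its number, y axes from 0 and x axes starting just below the lowest pool. ATP5MC2 and COX5B are higher in pools 15 and 26 than in pools 33 and 38, which have the lowest ribosomal protein sums.

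This count also rested on single pools. Without pools 33 and 38, 4 members rose, and with each pool left out in turn between 3 and 14 did: 3 without pool 38, 5 without pool 15, 6 without pool 14, 26, 31 or 36, and 7 without pool 19, 22, 23 or 24. Over all retained genes, ribosomal protein genes included, 87 rose in the main fit, 60 without pool 38 and 109 without pool 21. ATP5MC2, COX5B and UQCRB passed in all 27 fits. XIST and the log2 ribosomal protein sum had a Pearson r of -0.39 (permutation p = 0.0467, adjusted over 3 relations 0.140) and a Spearman rho of -0.29 (permutation p = 0.150, adjusted 0.451) over 27 pools, and r came to -0.16 once pools 5 and 33 were left out. With XIST as a second covariate, 2 members rose along the ribosomal protein sum, ATP5MC2 and COX5B. With the ribosomal protein sum as a second covariate, 3 members rose along XIST and 5 fell, the 3 being the X-linked ones.

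Along the log2 total count of the pool, 0 of the 91 members passed with edgeR (1 higher and 0 lower unadjusted), as did 0 of 12310 genes (0%), and DESeq2 called 0 members. The median slope of the members was -0.016 per doubling of the total. XIST and the log2 total count had a Pearson r of 0.0072 (permutation p = 0.972, adjusted 0.972) and a Spearman rho of 0.017 (permutation p = 0.933, adjusted 0.933), and r came to 0.055 once pools 5 and 33 were left out. The log2 total count and the log2 ribosomal protein sum had a Pearson r of 0.160 (permutation p = 0.424, adjusted 0.636) and a Spearman rho of 0.0696 (permutation p = 0.729, adjusted 0.933), and r came to 0.220 once pools 23 and 28, the farthest in total count, were left out.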

How the data were processed

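RNA of 27 pools of 2 blastocysts was reverse transcribed and amplified by the authors using a SMART-Seq v4 kit for 3′ ends. Per the paper and the labels, reads were checked with FastQC, trimmed with fastp, mapped to ARS-UCD2.0 with STAR, handled with SAMtools and counted with featureCounts; versions are not given in the sources used here. The authors deposited raw counts of 32637 genes, and all 27 columns were used. No molecular identifiers were counted, and reads of near-identical copies or overlapping genes can be lost or split.

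CPM was the count per 1000000 total counts. The abundance filter was that of the study (1 CPM or more in 12 or more pools). Each slope was fitted to all 12310 retained genes with edgeR 4.0.16 (TMM, glmQLFit, glmQLFTest, two-sided) in R 4.3.3, with 1 centred covariate and p adjusted over all of them, and the SE was taken from the slope and its F statistic. XIST and, in the ribosomal protein fit, the ribosomal protein genes were left out of the main edgeR counts of calls, except where said to be included. Counts of all genes from DESeq2 and from fits on fewer pools kept them. DESeq2 1.42.0 was an alternative. Correlations used 100000 permutations of the pools. Only the XIST fit was tried on simulated data, and the outcome is not reported here. The planned sample of gene pairs was replaced by all pairs. For ratios of the highest to the lowest pool, values under 3 counts were set to 3 counts. Positions came from RefSeq, in which 95 of 95 members matched, and no sequences were used.

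The members and lists were chosen with earlier results of these data known. Named were, per complex, the 2 highest and the lowest retained by median CPM, members not retained, isoform families, X-linked members, the 3 highest and 3 lowest ratios among medians of at least 5 CPM, the 5 called members with the smallest adjusted p per direction and fit, and called pathway genes. Values of 1 member are not reported singly here, though it is in every count. Other genes and pools were named after their values were seen. Python 3.11.15 with numpy 2.4.6, pandas 2.3.3, scipy 1.17.1 and matplotlib 3.10.9 was used.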

Additional observations from a re-analysis of the deposited data

How the results depend on the processing

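Along XIST the main counts were 2 members higher and 12 lower. RLE size factors, all genes with a count, DESeq2, the total count as a second covariate, log2 XIST and leaving out the 2 farthest pools gave between 2 and 3 higher and between 9 and 16 lower. The next 3 alternatives were chosen after seeing the data. In the 18 pools with Y-linked transcripts the counts were 0 higher and 0 lower, from fewer pools. With the ribosomal protein sum as a second covariate 5 were lower, and the cause was not tested. Leaving out each pool gave 2 to 3 higher and 5 to 18 lower, while 85 to 215 of all genes were lower. Along the ribosomal protein sum 12 were higher. RLE size factors, all genes with a count, DESeq2 and the total count as a second covariate gave 10 to 16, leaving out the 2 farthest pools gave 4, and, both chosen after seeing the data, XIST as a second covariate gave 2 and leaving out each pool 3 to 14, with 0 lower in every one of these fits. The cause was not tested. With each pool left out, 60 to 109 of all genes were higher, ribosomal protein genes included. Along the total count 0 members passed under every alternative run. No slope of a member named as called, or of NDUFB11, changed sign in the fits listed here. The median ratio of the highest to the lowest pool was 1.78, and 1.90 with TMM library sizes, and 89 members were retained at 2 CPM. Fits along mitochondrially encoded transcripts, reads per transcript length and promoter motifs were not run. No paired analysis was possible because the labels give no groups and a pool number pairs no samples. Depth limits COX4I2, COX8B and NDUFA4L2, which were at or near 0 counts.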
